A study of Mus musculus with 8 samples.

Results

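The 10 genes described here are immediate early genes of neuronal activity: Fos, Fosb, Junb, Egr1, Egr2, Egr3, Arc, Nr4a1, Npas4 and Ier2. They were chosen by name, and each took its value from the probe sets annotated with that symbol alone, averaged as log2 values on each array. All 10 were measured, with 46 probe sets and 3 to 8 per gene, among 20352 genes in all. The study profiled RNA of cerebellum at 28 days of age in 4 animals with the genotype label Cic-L-null and 4 wild-type animals, on 1 Affymetrix Mouse Gene 1.0 ST array per animal. Capicua (Cic) is a DNA-binding repressor of genes induced by receptor tyrosine kinase signalling, and the labels give no further description of the mutant allele. All 8 animals share the strain label of a mixed Swiss Webster (CD-1) background, and no animal is labelled as treated.

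Immediate early genes are transcribed within minutes of a rise in calcium, cyclic AMP or ERK signalling, from promoters that are already accessible and without new protein synthesis. In neurons, CREB bound to cyclic AMP response elements and SRF with its ETS-domain partners bound to CArG boxes drive this first wave. Many of the products are transcription factors that start a later wave of genes, and the RNAs decay rapidly, so that their level in a tissue reflects its recent history. A change in cell numbers and a change in RNA per cell cannot be told apart in whole tissue.

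Promoter sequences are given for the 3 genes whose values varied most between animals, Fos, Nr4a1 and Npas4. They show letter matches to the core of the cyclic AMP response element, a kind of element through which activity is known to act. Windows from RefSeq on build GRCm38.p6, reaching from 250 bases before a transcription start to 50 after it, were found for 6 of the 10 genes: Fos, Fosb, Junb, Egr2, Nr4a1 and Npas4. The printed stretches end at the base before the start, 5′ to 3′ on the strand of the gene. They cover chr12:85473750-85473889 on the plus strand for Fos, chr15:101266596-101266845 on the plus strand for Nr4a1 and chr19:4989972-4990161 on the minus strand for Npas4. Capitals mark the core of the cyclic AMP response element, TGACG or its reverse complement CGTCA, and, in Fos, TCCATTCA, the reverse complement of TGAATGGA, which is one of the octamers that Capicua is known to bind.
Fos: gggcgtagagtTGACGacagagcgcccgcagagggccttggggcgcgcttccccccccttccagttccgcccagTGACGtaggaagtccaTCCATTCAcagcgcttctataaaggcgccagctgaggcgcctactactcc
Nr4a1: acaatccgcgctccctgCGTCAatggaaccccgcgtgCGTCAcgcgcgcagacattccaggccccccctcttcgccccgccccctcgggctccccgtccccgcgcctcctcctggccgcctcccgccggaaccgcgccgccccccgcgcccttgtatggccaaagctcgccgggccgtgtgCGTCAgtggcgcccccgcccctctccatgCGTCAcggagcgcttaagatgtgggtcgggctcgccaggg
Npas4: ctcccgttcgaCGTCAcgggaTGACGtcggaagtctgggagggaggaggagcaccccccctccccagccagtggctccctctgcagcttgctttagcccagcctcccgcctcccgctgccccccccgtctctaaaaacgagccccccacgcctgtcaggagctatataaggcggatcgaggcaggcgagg
The core TGACG, searched on both strands, occurred in at least 1 window of all 6 genes. It occurred in 23% of the 27025 genes with a window. It was found 2 times in the printed stretch of Fos, 4 times in that of Nr4a1 and 2 times in that of Npas4. The full palindrome TGACGTCA, which contains the core, was in none of the windows of the 6 genes and in those of 2.03% of all genes. The Capicua octamer TGAATGGA was found in Fos alone of the 6, starting 50 bases before the start on the opposite strand, and in 1.4% of all genes. Its variant TGAATGAA was found in Fosb alone of the 6, where it spans the start on the opposite strand, and in 1.5% of all genes. A CArG box, searched strictly as CC, 6 letters A or T and GG, was found in Egr2 alone of the 6, and in 1.81% of all genes. Looser variants of it, and elements farther than 250 bases before the start, were not searched. These are matches of letters in short windows, and none was tested as a binding site.

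Gene values correlated between arrays of a group with a mean r of 0.993 to 0.995. Wild-type replicate 1 stood farthest from the rest of its group, with an SD of its differences from the rest of the group of 0.21 log2 units over all genes, against 0.15 to 0.19 for the other 7 arrays. It had the lowest array weight in limma, at 0.444. It is also the array whose extraction label differs, naming Trizol with an RNeasy cleanup, so that the array and its extraction cannot be told apart. Cic, the altered gene, had log2 values of 7.48 to 7.62 in Cic-L-null and 8.57 to 9.19 in wild-type cerebella, with no overlap. Cic-L-null replicate 3 and the wild-type arrays 2 and 3 had Xist values of 10.55 to 10.60 and Kdm5d values of 4.99 to 5.26. The other 5 arrays had Xist values of 5.17 to 5.46 and Kdm5d values of 8.68 to 8.75, so arrays with Y-linked signal numbered 3 in the mutant and 2 in the wild-type group. Gabra6, a receptor subunit that marks cerebellar granule cells, lay between 12.36 and 12.45 in Cic-L-null and between 12.32 and 12.53 in wild-type arrays. The forebrain neuron genes Neurod6 and Tbr1 had group means of 5.81 to 6.11, under 6.21, which is the value that 95% of 985 olfactory receptor genes did not exceed and which serves as the limit for dim genes. The other 4 measured forebrain markers had a mean over all arrays above it. Emx1, Drd1 and Bcl11b had group means of 7.51 to 8.02. Lamp5 had a mean of 6.33 in Cic-L-null but 6.11 in wild-type, under the limit. It reached 7.29 in Cic-L-null replicate 2, against 5.93 to 6.48 in the other 7 arrays. Of the 10 genes, Egr2 lay below that limit and the other 9 above it.

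No immediate early gene of the 10 passed the test between the groups. With limma and Benjamini-Hochberg adjustment over all 20352 genes, 0 of the 10 reached an adjusted p under 0.05, where 0.138% of all genes did, 0.0491% in the lower and 0.0884% in the higher direction. At an unadjusted p under 0.05 there were 2 of the 10, Arc and Egr1, both lower in Cic-L-null, against 9.26% of all genes in either direction, 4.7% lower and 4.56% higher. A mean difference above 0 was found for 5 genes and one below 0 for 5, where 53.0% of all genes lay below 0, and the median of the 10 differences was -0.025 log2 units, beside -0.0071 over all genes. That median was 0.0063 with Y-linked genes as a covariate, -0.071 when mutant array 3 was left out and -0.00065 when wild-type array 2 was, so its sign is not settled. The widest differences were 0.33 for Fos and -0.26 for Arc. Arc alone of the 10 had groups that did not overlap, where 5.94% of all genes had such groups in either direction.

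**Figure D1:**
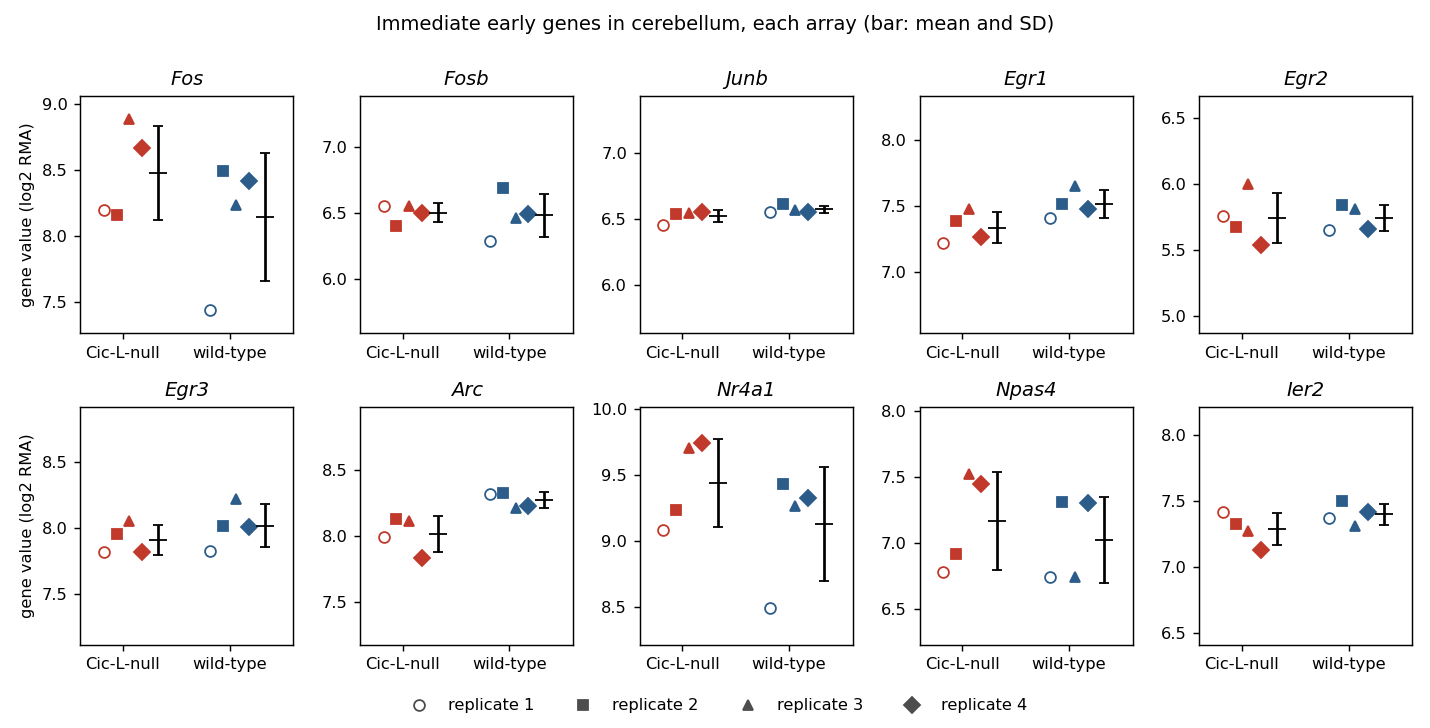
Gene value (log2 RMA, vertical axes of equal span) of the 10 immediate early genes on each array, Cic-L-null in red on the left and wild-type in blue on the right of each panel, with marker shapes for the replicate numbers and black bars for the mean and SD of 4 arrays. Arc is the gene whose groups do not overlap, and wild-type replicate 1 (open blue circle) is the lowest array for Fos at 7.44 and Nr4a1 at 8.49.

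Fos encodes the partner that joins Jun proteins in the AP-1 transcription factor and is the most widely used marker of recently active neurons. Its log2 values were 8.19, 8.16, 8.89 and 8.66 in the Cic-L-null replicates 1 to 4, against 7.44, 8.49, 8.23 and 8.42 in the wild-type replicates 1 to 4. Cic-L-null replicates 3 and 4 were the 2 highest arrays and wild-type replicate 1 was the lowest, with the other 5 arrays between them and the groups overlapping. The means were 8.47 ± 0.36 in Cic-L-null and 8.14 ± 0.48 in wild-type (SD, n = 4 each), a difference of 0.33 (SE 0.23, 95% interval -0.19 to 0.85, limma adjusted p = 0.749). On each of its 4 probe sets wild-type replicate 1 was the lowest of the 8 arrays. Without that array the difference was 0.095 (SE 0.17), the lowest with 1 array left out. The highest was 0.45, without wild-type replicate 2. With Y-linked genes as a covariate it was 0.45 (SE 0.20, limma adjusted p = 0.564).

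Fosb, which encodes a second AP-1 partner and the truncated form that builds up with repeated activity, varied far less in its gene value than Fos. It lies on chromosome 7, which also carries Cic. Its log2 values were 6.55, 6.40, 6.55 and 6.50 in Cic-L-null, against 6.29, 6.68, 6.46 and 6.49 in wild-type cerebella, and both the highest and the lowest array were wild-type. The difference was 0.019 (SE 0.083, limma adjusted p = 0.976), and it was -0.044 without wild-type replicate 1. Only 2 of its 5 probe sets lay above the probe set limit for dim signal, set like the gene limit at 6.31. These 2 ran over a wider span than the gene value, which averages them with the dim ones. Probe set 10560484 ran from 7.50 to 8.06 and 10560485 from 7.71 to 8.41, each lowest in wild-type replicate 1.

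Junb encodes a Jun protein that pairs with Fos in AP-1. Its values were the least variable of the 10 genes, at 6.46, 6.54, 6.55 and 6.55 in Cic-L-null and 6.56, 6.61, 6.57 and 6.55 in wild-type cerebella. Cic-L-null replicate 1 was the lowest array, and the groups overlapped by 1 array, since Cic-L-null replicate 4 stood marginally above wild-type replicate 4. The difference was -0.050 (SE 0.053, limma adjusted p = 0.855), and -0.028 without Cic-L-null replicate 1. Its probe sets did not run together: probe set 10580284 differed by -0.19, 10580285 by 0.046 and the dim 10580283 by -0.0094. The gene value is a mean over these 3 probe sets.

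Nr4a1 encodes an orphan nuclear receptor, and its RNA followed the pattern of Fos. Its log2 values were 9.08, 9.23, 9.70 and 9.74 in Cic-L-null, against 8.49, 9.43, 9.26 and 9.32 in wild-type cerebella. Again Cic-L-null replicates 3 and 4 were highest and wild-type replicate 1 was lowest. The difference was 0.31 (SE 0.21, 95% interval -0.16 to 0.78, limma adjusted p = 0.729), and 0.10 (SE 0.16) without wild-type replicate 1. It was 0.43 without Cic-L-null replicate 1, the highest with 1 array left out. With Y-linked genes as a covariate it was 0.41 (SE 0.19, limma adjusted p = 0.586). All 8 of its probe sets had a higher mean in Cic-L-null, from 0.067 to 0.45, and each had its lowest value in wild-type replicate 1, while 7 of the 8 had their highest value in Cic-L-null replicate 3 or 4.

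Npas4 encodes a bHLH-PAS transcription factor that is induced by calcium entry in neurons and, unlike Fos, hardly at all by growth factors. Its log2 values were 6.78, 6.92, 7.52 and 7.45 in Cic-L-null, against 6.74, 7.31, 6.74 and 7.30 in wild-type cerebella. The arrays fell into 4 high ones, Cic-L-null replicates 3 and 4 and wild-type replicates 2 and 4, and 4 low ones, 2 from each group. The difference was 0.14 (SE 0.19, limma adjusted p = 0.891) and 0.048 (SE 0.21) without wild-type replicate 1. It was 0.025 when mutant array 3 was left out and 0.27 when mutant array 1 was. Of its 8 probe sets, 3 had a lower mean in Cic-L-null and 5 a higher one.

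Arc, whose RNA travels into dendrites and whose protein drives the removal of AMPA receptors from synapses, had the smallest p of the 10 genes. Its log2 values were 7.99, 8.13, 8.12 and 7.83 in Cic-L-null, against 8.32, 8.33, 8.22 and 8.23 in wild-type cerebella. Every mutant array lay below every wild-type array. The means were 8.02 ± 0.14 in Cic-L-null and 8.27 ± 0.059 in wild-type (SD, n = 4 each), a difference of -0.26 (SE 0.075, 95% interval -0.42 to -0.089) or 1.19-fold lower. The adjusted p over all genes was 0.283 with limma, where Arc ranked 452nd by p. The exact two-sided permutation test over the 70 splits of the arrays gave p = 0.0286, the smallest p this design allows. Groups that do not overlap in the lower direction were found for 2.91% of all genes.

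All 3 Arc probe sets were lower on average in the mutants, with differences of -0.36 for 10429494, -0.26 for 10429492 and -0.14 for 10429493. The groups did not overlap on 10429494 and did on the other two. Without wild-type replicate 1 the difference was -0.24 (SE 0.081), and it was smallest, at -0.19, without Cic-L-null replicate 4, the lowest array. Over all arrays left out in turn it lay between -0.29 and -0.19, and it was called in none of these fits.

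The EGR genes encode zinc-finger transcription factors that bind GC-rich elements, and Egr1 is known as an integrator of ERK signalling. Egr1 had log2 values of 7.22, 7.39, 7.48 and 7.27 in Cic-L-null, against 7.41, 7.52, 7.66 and 7.48 in wild-type cerebella. The groups overlapped only where Cic-L-null replicate 3 exceeded wild-type replicate 1. The means were 7.34 ± 0.12 in Cic-L-null and 7.52 ± 0.10 in wild-type (SD, n = 4 each), and the difference was -0.18 (SE 0.077, 95% interval -0.35 to -0.0085, limma adjusted p = 0.508). All 3 probe sets were lower on average, and on 10454784 the groups did not overlap. Leaving out 1 array at a time gave -0.23 to -0.13.

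Egr3, which is needed for muscle spindles and is induced together with Egr1 in neurons, had log2 values of 7.82, 7.95, 8.05 and 7.81 in Cic-L-null and 7.82, 8.01, 8.22 and 8.01 in wild-type cerebella. Its difference was -0.11 (SE 0.089, limma adjusted p = 0.802), and on each of 4 probe sets the mutant mean was the lower one. The difference ran from -0.17 without wild-type replicate 1 to -0.039 without wild-type replicate 3. Egr2, known for its part in Schwann cell myelination and hindbrain segments, had values of 5.76, 5.68, 6.0 and 5.54 in Cic-L-null and 5.65, 5.85, 5.82 and 5.66 in wild-type cerebella. The difference was 0.00070 (SE 0.096, limma adjusted p = 0.999). Egr2 lay below the limit for dim genes, and 3 of its 5 probe sets were above the probe set limit.

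In each genotype the gene values of Egr1, Egr2 and Egr3 were highest in the arrays with Xist signal, which holds for 3 of the 10 genes and for 6.11% of all genes. It does not hold for Egr4, a relative outside the 10, which was at 7.69 in the Cic-L-null array with Xist signal and at 7.82 in Cic-L-null replicate 2. Egr1 was at 7.48 in the 1 such Cic-L-null array, against 7.22 to 7.39 in the other 3 mutants, and at 7.52 and 7.66 in the 2 such wild-type arrays, against 7.41 and 7.48 in the other 2. Egr2 was at 6.0 in the Cic-L-null array with Xist signal, against 5.54 to 5.76 in the other mutants, and at 5.85 and 5.82 in the wild-type arrays with it, against 5.65 and 5.66. Egr3 was at 8.05 in that Cic-L-null array, against 7.81 to 7.95, and at 8.01 and 8.22 in those wild-type arrays, against 7.82 and 8.01, where the closest pair differed by less than 0.01. This order was not kept on any Egr1 probe set. On 10454784 Cic-L-null replicate 3 was at 7.53, below replicate 2 at 7.54. On 10454785 wild-type replicate 3 was at 8.81, below replicate 1 at 8.86. On the dim 10454783 wild-type replicate 2 was at 6.07, below replicate 4 at 6.09. Among the other probe sets only 10416255 of Egr3, 10363740 of Egr2 and the dim 10363738 of Egr2 kept it. The order of the gene values is a description of 3 arrays against 5, noticed in the data, and the part of the sex-linked signal in these values was not tested. With Y-linked genes as a covariate the differences of Egr1 and Egr3 between the genotypes were -0.14 (SE 0.065) and -0.057 (SE 0.075).

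Ier2, a nuclear protein gene induced by serum and by activity, had log2 values of 7.41, 7.32, 7.27 and 7.12 in Cic-L-null, against 7.37, 7.50, 7.31 and 7.42 in wild-type cerebella. The 2 lowest arrays were mutants, and the groups overlapped. The difference was -0.11 (SE 0.073, limma adjusted p = 0.705), and -0.061 without Cic-L-null replicate 4. All 3 probe sets had a lower mean in Cic-L-null.

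**Figure D2:**
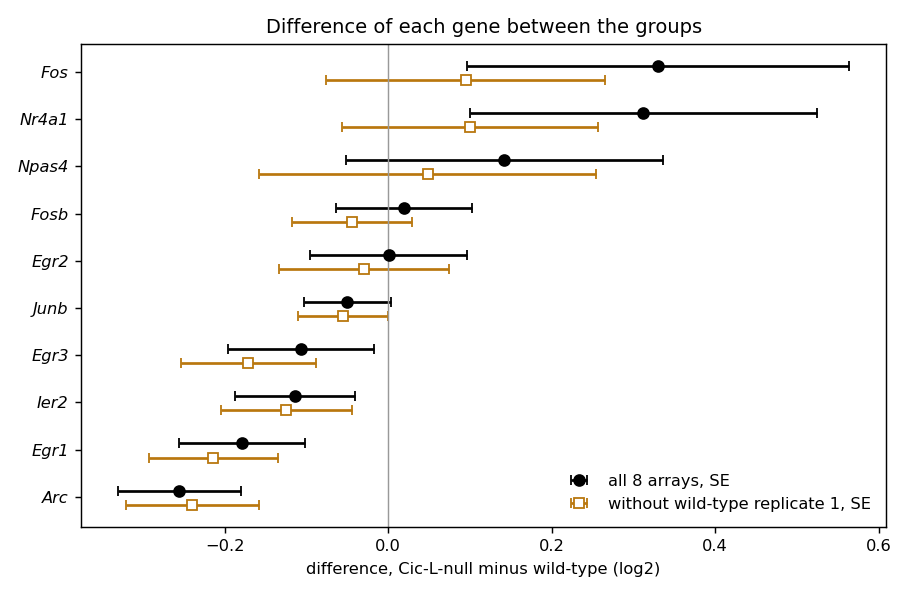
Difference of each immediate early gene between the groups (horizontal axis, log2, Cic-L-null minus wild-type) with its limma SE, over all 8 arrays in black and without wild-type replicate 1 in orange. Fos and Nr4a1 move from 0.33 and 0.31 to 0.095 and 0.10 without that array, and Arc from -0.26 to -0.24. Leaving out another single array, not drawn here, gave up to 0.45 for Fos and 0.43 for Nr4a1.

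Fos, Nr4a1 and Npas4 varied between animals of 1 genotype more than nearly all genes. Their SDs within groups were 0.43, 0.38 and 0.35 log2 units, higher than those of 98.9% to 99.4% of all genes, whose median SD was 0.112. The other 7 genes had SDs of 0.037 to 0.15, between the percentiles 1.72 and 75.7. Wild-type replicate 1 was the lowest wild-type array for 7 of the 10 genes, as it was for 32.6% of all genes. Cic-L-null replicate 3 was the highest mutant array for 6 of the 10, as it was for 24.4% of all genes.

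Covariation between the genes was measured over the 8 arrays after the mean of each group was removed. The mean difference between genotypes therefore does not enter, but r can still differ between them. Of the 45 pairs, 35 had r above 0, with a median of 0.36, beside 0.040 over all pairs of the 14010 genes above the dim limit. Fos and Nr4a1 had the highest correlation, with Pearson r = 0.97 (exact permutation p = 0.0122 over all reassignments of arrays within groups) and Spearman rho = 0.86 (exact permutation p = 0.0278). Egr1 and Egr3 followed with r = 0.95 (exact permutation p = 0.0052) and rho = 0.93 (exact permutation p = 0.0174). Adjusted over the 45 pairs, p was 0.182 for r and 0.25 for rho in both cases, and no pair passed. Pairs with r above 0.8 made up 4 of the 45, or 8.89%, against 2.81% of all gene pairs above the dim limit.

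The other 2 such pairs joined Npas4 to Fos and Nr4a1. Npas4 correlated with Fos at r = 0.82 (exact permutation p = 0.0226, adjusted p = 0.254) and rho = 0.86 (exact permutation p = 0.0191, adjusted p = 0.25), and with Nr4a1 at r = 0.81 (exact permutation p = 0.0087, adjusted p = 0.182) and rho = 0.88 (exact permutation p = 0.0104, adjusted p = 0.25). Without the 2 arrays farthest from the median of the first gene, r was 0.92 for Fos with Nr4a1, 0.87 for Egr1 with Egr3, 0.92 for Fos with Npas4 and 0.83 for Nr4a1 with Npas4. Without wild-type replicate 1 alone it was 0.92, 0.97, 0.91 and 0.88 for these pairs, so none of the 4 rests on that array. The gene value of Egr1 includes the dim probe set 10454783, at 5.77 in wild-type replicate 1 and 6.54 in replicate 3. Egr3 was at 7.82 and 8.22 in these arrays. The brighter Egr1 probe sets 10454784, at 7.60 and 7.62, and 10454785, at 8.86 and 8.81, showed no such rise. In Cic-L-null all Egr1 probe sets were lower in replicates 1 and 4 than in 2 and 3, as Egr3 was. Correlations by probe set were not computed. Fos with Fosb had r = 0.77 and rho = 0.83 (exact permutation p = 0.0694 for r and 0.026 for rho, adjusted p = 0.56 and 0.25), and there r was 0.25 without the 2 farthest arrays.

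Arc and Ier2 had weak correlations with Fos over the 8 arrays. Arc correlated with Fos at r = -0.20 and with Nr4a1 at -0.30, and Ier2 with Fos at -0.11 and with Nr4a1 at -0.27, while Arc and Ier2 had r = 0.58 with each other. Without the 2 farthest arrays r was -0.025 for Arc with Ier2 and 0.32 for Fos with Arc, so both rest on those arrays. Spearman rho was 0.0 for Fos with Arc and 0.024 for Fos with Ier2. The exact permutation p of these 5 pairs lay between 0.24 and 0.776, and that of rho between 0.24 and 1, so neither link nor its absence is shown. Within Cic-L-null alone Ier2 had r = -0.64 with Fos and -0.87 with Nr4a1, against 0.46 and 0.40 within wild-type. Arc had the same sign in both groups, at -0.15 and -0.38 with Fos and -0.31 and -0.40 with Nr4a1. These values rest on 4 arrays each, and a difference of r between genotypes was not tested. Arc was low in Cic-L-null replicate 4, at 7.83, where Fos was high, at 8.66. With the Y-linked genes as a covariate the median r of the 45 pairs was -0.034, whereas Fos with Nr4a1 kept r = 0.96 and Egr1 with Egr3 r = 0.88. Egr1 with Egr2 and Egr2 with Egr3, at 0.66 and 0.64 before, were at -0.069 and -0.034 with that covariate.

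**Figure D3:**
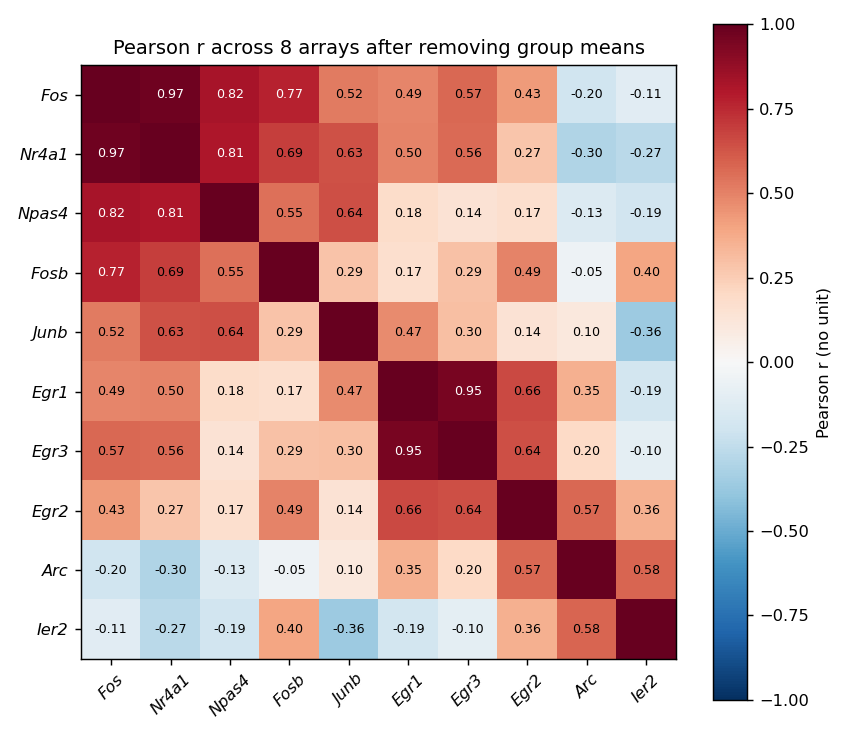
Pearson r (colour and number, from -1 to 1) between each pair of the 10 genes across the 8 arrays after removal of group means, with genes ordered by hand after their values were seen. The high values join Fos, Nr4a1 and Npas4 (0.81 to 0.97) and Egr1 with Egr3 (0.95), and Arc and Ier2 have low or negative values with Fos and Nr4a1.

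**Figure D4:**
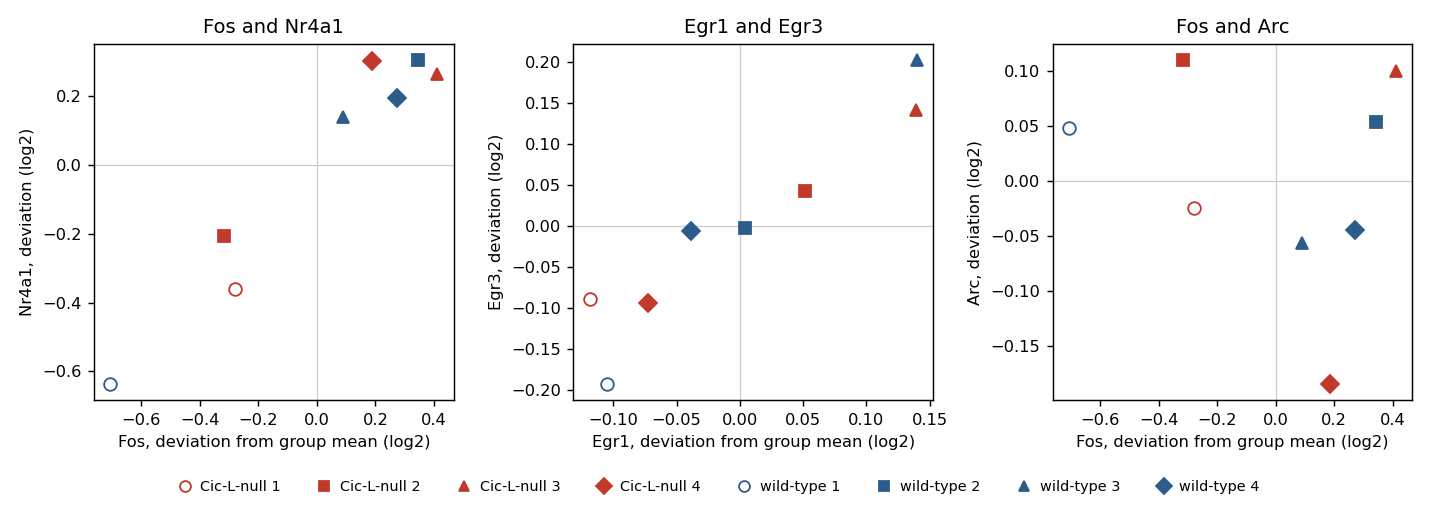
Deviation of each array from its group mean (log2) for Fos against Nr4a1, Egr1 against Egr3 and Fos against Arc, with Cic-L-null arrays in red and wild-type arrays in blue. Points run along a rising line in the first 2 panels (r = 0.97 and 0.95) and show no such line in the third (r = -0.20).

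Several other immediate early genes had a high r with Fos across the arrays. Among 14009 genes above the dim limit, Nr4a1 ranked 4th by r with Fos, and 38th without wild-type replicate 1, at r = 0.92. Of 39 listed immediate early genes outside the 10 that passed the dim limit, 6 (15.4%) had r above 0.8 with Fos, against 1.44% of all genes, and 5 did without wild-type replicate 1, against 2.05%. Without that array Klf2 (r = 0.75) and Sik1 (r = 0.71) were no longer above 0.8, and Nr4a3 (r = 0.84, against 0.77 with all arrays) was. The 6 included Dusp1, which encodes a MAP kinase phosphatase (r = 0.93), the nuclear receptor gene Nr4a2 (r = 0.92), Ccn1, which encodes a secreted matrix protein (r = 0.92), and Klf2, a zinc-finger factor gene of endothelium among other cells (r = 0.91), all named after their values were seen. Dusp1 had log2 values of 10.51, 10.64, 10.99 and 10.65 in Cic-L-null, against 9.95, 10.84, 10.68 and 10.66 in wild-type cerebella, lowest in wild-type replicate 1 like Fos. None of the late activity response genes (18 above the limit), the glucocorticoid response genes (13) or the heat shock genes (7) had r above 0.8 with Fos, whereas 1 of the 28 upstream regulators, the ETS-domain gene Elk3, did. Without wild-type replicate 1 the late gene Gpr3 passed that bound, at 0.81 where it had 0.79 with all arrays, while Elk3, at 0.68, did not and another of the 28 regulators did. With Egr1, 1 of the 39 other immediate early genes, the AP-1 gene Fosl1, had r above 0.8, and so did 1 of 18 late genes (5.56%), Nrn1 at 0.80, against 3.06% of all genes. Nrn1 had 0.77 without wild-type replicate 1. The late gene Bdnf then passed, at 0.92 where it had 0.74 with all arrays, as did 1 of the 28 upstream regulators, against 3.66% of all genes.

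Genes most like the 10 were found by their r with the mean of the 10 genes, each scaled by its SD within groups. That mean was lowest in wild-type replicate 1, at -0.89, and highest in Cic-L-null replicate 3, at 0.85, and wild-type replicate 2, at 0.73. The last 2 are arrays with Xist signal, and over the 8 arrays the mean had r = 0.84 with Xist and -0.85 to -0.82 with Kdm5d, Uty and Eif2s3y, which are Y-linked. The part of this signal in the ranking was not tested. The 8 genes with the highest r over the 8 arrays were Aunip (0.99), Aldoart2 (0.97), Il9r (0.96), A4galt (0.96), Gm6540 (0.96), Gldnos (0.95), A830031A19Rik (0.95) and Vsir (0.95). Their values ranged over 0.23 to 0.57 log2 units across arrays, and Aldoart2, Il9r and Gldnos had group means of 6.22 to 6.48, close to the dim limit. Dusp1 ranked 15th of 14001 genes at r = 0.94, named after its value was seen.

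The wider pathway was read from lists, none of whose genes passed over all genes, and a gene such as Jun can stand in more than 1 list. Of 10 relatives of the same families, AP-1, EGR and NR4A, 3 had a difference above 0 and 7 below, with a median of -0.051. Jun, the main Jun protein gene, had log2 values of 9.60, 9.49, 9.70 and 9.19 in Cic-L-null, against 9.91, 9.90, 9.73 and 9.87 in wild-type cerebella. Every mutant array was below every wild-type array, and the difference was -0.36 (SE 0.10, limma adjusted p = 0.266). Jun was the 1 relative of the 10 whose groups did not overlap, where 2.91% of all genes had such groups in the lower direction. Jund differed by -0.16 (SE 0.070) and Nr4a2 by 0.22 (SE 0.18), with adjusted p of 0.499 and 0.778.

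Among 40 other immediate early genes, 24 had a difference above 0 and 16 below, with a median of 0.037. Groups did not overlap for 4 of them in the higher direction (Ccn2, Klf6, Dusp5 and Plk3) and for Jun in the lower, where 3.02% and 2.91% of all genes were of each kind. Ccn2, which encodes a secreted matrix protein, had values of 7.95, 8.16, 8.21 and 8.27 in Cic-L-null, against 7.57, 7.73, 7.78 and 7.64 in wild-type cerebella, a difference of 0.47 (SE 0.081, limma adjusted p = 0.068). Klf6, a zinc-finger factor gene, differed by 0.37 (SE 0.073, limma adjusted p = 0.0964), and Dusp5, whose product inactivates nuclear ERK, by 0.25 (SE 0.053, limma adjusted p = 0.117). For all 3 the groups did not overlap, and none was called. Wild-type replicate 1 was the lowest wild-type array for Ccn2, as for Fos, but not for Klf6 or Dusp5.

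Of the 21 late activity response genes, 13 had a difference above 0 and 8 below, with a median of 0.039. Vgf, a neuropeptide precursor gene, had values of 7.03, 7.27, 6.99 and 6.97 in Cic-L-null and 6.70, 6.48, 6.59 and 6.48 in wild-type cerebella, without overlap, and differed by 0.50 (SE 0.083, limma adjusted p = 0.0582). Gpr3, a receptor gene that raises cyclic AMP without a ligand, differed by 0.51 (SE 0.13, limma adjusted p = 0.199), and its groups overlapped by 1 array. Pcsk1, which encodes a protease that processes neuropeptides, differed by -0.35 (SE 0.085, limma adjusted p = 0.19) without overlap. Groups did not overlap for 3 of the 21 in the higher direction and 2 in the lower, against 3.02% and 2.91% of all genes. Besides Vgf and Pcsk1 these were Rasgrp1 and Penk, higher, and Nab2, lower.

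Of 30 listed regulators upstream of these genes 28 were measured, 17 with a difference above 0 and 11 below, at a median of 0.034. Camk4, a calcium-dependent kinase of CREB that granule cells express strongly, had values of 10.96 to 11.11 in Cic-L-null and 11.18 to 11.29 in wild-type cerebella and differed by -0.21 (SE 0.058, limma adjusted p = 0.254). Mrtfb, a coactivator of SRF, differed by -0.21 (SE 0.060, limma adjusted p = 0.276), also without overlap. Groups did not overlap for Camk4, Mrtfb and Camk2b in the lower direction and for Creb1 and Mef2c in the higher. These are 3 and 2 of the 28, against 2.91% and 3.02% of all genes. Rps6ka3, the gene on the X chromosome of a kinase downstream of ERK that phosphorylates CREB, differed by 0.21 (SE 0.071, limma adjusted p = 0.346) with overlap.

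**Figure D5:**
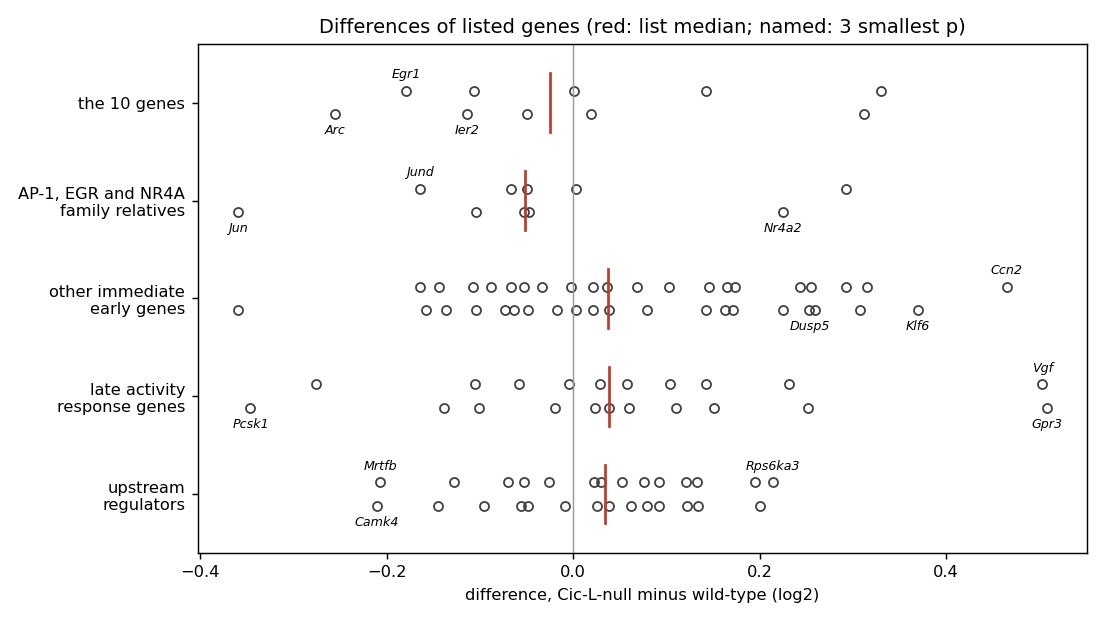
Difference of each listed gene (horizontal axis, log2, Cic-L-null minus wild-type; 1 circle per gene, shifted up or down for legibility) in 5 lists, with red lines at the list medians and names for the 3 genes with the smallest p. The medians lie between -0.051 and 0.039, and no gene shown passed over all genes.

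Lists of stress responses and of cell type markers were read in the same way. Of 14 glucocorticoid response genes, 8 differed upwards and 6 downwards at a median of 0.076, and Fkbp5, Lcn2 and Zbtb16 differed by 0.34, 0.36 and 0.34 (limma adjusted p = 0.385, 0.412 and 0.44). Lcn2 lay below the limit for dim genes, with means of 5.95 in Cic-L-null and 5.59 in wild-type cerebella. The median of 7 measured heat shock genes was 0.043, with 5 above 0, and Hsp90aa1, Hsph1 and Hspa1a, which encode chaperones, differed by -0.10, -0.084 and 0.065. For the cell types, the median difference was 0.057 for granule cell markers, 0.030 for Purkinje cells, -0.087 for Bergmann glia and astrocytes, -0.11 for mature oligodendrocytes, 0.019 for microglia, -0.069 for endothelium, -0.16 for choroid plexus and -0.086 for forebrain. The 2 measured blood genes went opposite ways, Alas2 at 0.50 and Hbb-b1, below the limit for dim genes, at -0.45. None of these markers was called. All 7 measured oligodendrocyte markers lay below 0, where 53.0% of all genes did. Groups did not overlap in the lower direction for 4 of them, Mobp, Cldn11, Mbp and Cnp, for 2 of 9 Bergmann glia and astrocyte markers, Gdf10 and Aldh1l1, and for the endothelial marker Cldn5, where 2.91% of all genes were of this kind. In the higher direction, where it was 3.02%, they did not overlap for the granule cell markers Reln and Slc17a7, the Purkinje cell markers Cacna1g and Rora, and Slc1a2 of the astrocyte list.

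Marker levels in the arrays that stood out for Fos were as follows. The 8 choroid plexus markers averaged 7.35 in Cic-L-null replicate 3, where Fos was highest, against 7.97 to 8.51 in the other mutants and 7.98 to 8.41 in the wild-type arrays. The 8 endothelial markers averaged 8.21 to 8.47 in Cic-L-null and 8.28 to 8.48 in wild-type arrays, with wild-type replicate 1 at 8.46. Wild-type replicate 1, where Fos was lowest, had the highest Purkinje cell marker mean, 11.01 against 10.82 to 10.98 in the others. It was also highest for Bergmann glia and astrocytes, 9.95 against 9.78 to 9.92, and for mature oligodendrocytes, 10.67 against 10.45 to 10.65. Its granule cell and microglia marker means, 11.69 and 7.24, lay within the range of the others. The 6 measured forebrain markers of 8 averaged 6.71 to 7.11 in Cic-L-null and 6.79 to 7.07 in wild-type arrays, highest in Cic-L-null replicate 2. Their part in the values of the immediate early genes was not tested.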

How the data were processed

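The deposited table holds log2 values for 241576 probe sets on 8 arrays, and the submitters' processing notes say that the authors made them with RMA, using Affymetrix Power Tools. Its version, and likewise the genome build, is not given in the sources used here. RMA quantile normalisation sets arrays to a common distribution, and averaging probe sets mixes bright with dim ones. Arrays give no read depth, and their number limits precision. Gene names came from the platform annotation, which is old, updated through the gene table of GRCm38.p6, and 212097 probe sets with 1 symbol gave 20352 genes by the mean log2 value. Groups were compared with limma 3.58.1 in R 4.3.3 (lmFit, eBayes) with Benjamini-Hochberg adjustment over all genes and a threshold of 0.05, without a filter on dim genes. Differences are Cic-L-null minus wild-type. The fit was tested on simulated data. Correlations used deviations from group means, with exact permutation of arrays within groups. The labels give no litter, batch or scan date. The 10 genes, the gene lists and the rule for names were chosen with earlier results of these data known. The rule named the 10 genes, Cic, the sex-linked genes Xist and Kdm5d, the 3 members of smallest p in each pathway list and the 8 genes most like the mean of the 10. Genes named outside it were chosen after their values were seen. Alternatives covered probe set summaries, dim filters, normalisation, covariates, variance models, a replicate block and each array left out.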

Additional observations from a re-analysis of the deposited data

Results flagged for a closer look

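Junb in Cic-L-null replicate 1, at a log2 value of 6.46, lay apart from the other 3 mutant arrays, at 6.54 to 6.55. The gap to its nearest neighbour was 0.836 of the range of the group, past Dixon's 95% critical value for 4 samples. It was the only such value among 20 combinations of gene and group, where chance gives about 1 in 20. The range of Junb over the 4 mutants was 0.096 log2 units, the narrowest of the 10 genes in that group. Cic-L-null replicate 1 was the lowest mutant only on the dim probe set 10580283, at 4.07 against 4.17 to 4.40. On 10580284 it was at 7.23, above Cic-L-null replicate 4 at 7.20, and on 10580285 it was the highest mutant, at 8.07. The flagged value is therefore not borne out by the brighter probe sets. The low value of Fos in wild-type replicate 1 did not pass the same criterion. That of Nr4a1 in the same array, at 8.49 against 9.26 to 9.43 in the other wild-type arrays, fell narrowly short of it.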

How the results depend on the processing

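None of the 10 genes was called under any of the 18 alternatives, with the smallest adjusted p, 0.172 for Arc, under a trended and robust variance, where Arc ranged up to 0.575 over its alternatives. Arc, Egr1, Egr3, Junb and Ier2 stayed below 0 and Fos, Nr4a1 and Npas4 above 0 under every alternative run. Their sizes moved: Junb was -0.19 and Egr3 -0.027 with the probe set median, and Npas4 was 0.014 with array weights. Over the alternatives Fos ran from 0.095 to 0.45 and Nr4a1 from 0.10 to 0.43. The median of the 10 differences, -0.025, was 0.0063 with the Y-linked covariate and -0.071 to -0.00065 with 1 array left out. Fosb, at 0.019, turned to -0.037 with array weights, and with single arrays left out it ran from -0.044, without wild-type replicate 1, to 0.087. Egr2, at 0.00070, turned to -0.0048 with array weights, -0.032 with bright probe sets only and -0.077 with the probe set median, and over single arrays left out it ran from -0.084 to 0.068. It was negative at -0.0046 and -0.084 when mutant array 1 or 3 was left out, and at -0.029 and -0.027 when wild-type array 1 or 4 was. Egr2 dropped out under the filter on dim genes. The count of genes called over all genes, 28, was 18 with the Y-linked covariate, 54 with array weights, 69 among genes above the dim limit, 2 with the probe set median, 130 with a trended and robust variance, 0 with the unmoderated test and 0 to 37 with 1 array left out. It was 36 and 37 when mutant array 3 or wild-type array 1 was left out, and 0 to 7 when any of the other 6 was. The median r of the 45 pairs, 0.36, was 0.18 after a further quantile normalisation, -0.034 with the Y-linked covariate and 0.25 to 0.52 with 1 array left out, with the low values when mutant array 3 or wild-type array 1 was missing. The replicate block gave 0 genes called over all genes, 0 of the 10 genes and a median r of 0.18. Under it the SE fell to 0.16 for Fos and 0.12 for Nr4a1 (limma adjusted p = 0.547 and 0.446), and it rose for Fosb and Junb. Arrays with the same number correlated at 0.22, 0.00033, 0.21 and 0.026 over all genes. For replicates 1 and 3 the same number was the best match, and for 2 and 4 another number was, at 0.11 and 0.12. With this mixed result the numbers were not taken to pair the animals. The cause of these shifts was not tested. Signal over background limits Egr2 and the dimmer probe sets of Fosb.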
